A study of Mus musculus with 6 samples.

Results

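The Reg lectin and lysozyme genes Reg1, Reg3a, Reg3b, Reg3g, Reg4, Lyz1 and Lyz2 were followed through RNA sequencing of mouse colonic organoids, and make up 7 of the 25067 rows of the deposited values. They were chosen by their symbols, with the expression values of the same vehicle and 4-OHT libraries already known, so their levels and differences are given as a description with no test. The organoids came from C57BL/6 mice 8 weeks old and carried Prkci f/f, Prkcz f/f and Villin-CreERT2, a tamoxifen-inducible recombinase driven by a promoter of intestinal epithelial cells. Crypts were grown in medium with WNT3A, EGF, Noggin and R-spondin 1, and organoids received 4-OH tamoxifen (4-OHT, 3 libraries) or ethanol vehicle (3 libraries) when passaged and were harvested 3 days later. The labels call the vehicle organoids wild type, although they carry the same floxed genes and the recombinase. Every library holds all these alleles, so loss of the 2 kinases, Cre activity and 4-OHT itself cannot be told apart. The labels do not say that the 3 libraries of a group came from separate animals or cultures, so p-values measure only the spread between these libraries, which may be technical.

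Reg proteins are small secreted C-type lectins. Reg3b and Reg3g bind bacteria at the epithelial surface and are induced through cytokine receptors that signal to STAT3 and through MyD88, whereas Reg4 is a product of enteroendocrine cells and of deep crypt secretory cells, the colonic counterparts of Paneth cells. Lysozymes cleave bacterial peptidoglycan, and in the mouse Lyz1 is the Paneth cell enzyme while Lyz2 is the enzyme of macrophages and neutrophils. Reg1 and Reg3a are further family members that are prominent in the pancreas and in the small intestine.

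The 7 genes fell into 3 patterns (as shown in the plot of members by library). Reg4 and Lyz1 were detected in every library, with vehicle and 4-OHT values that overlapped. Reg3b and Reg3g had at most 5 reads in 4-OHT replicate 1 and every vehicle library, and between 123 and 611 reads in 4-OHT replicates 2 and 3. Reg1, Reg3a and Lyz2 were at or near 0 in most libraries, with Lyz2 reaching 25 reads in 4-OHT replicate 3. Levels are given as reads recovered from the deposited values or as normalized counts, which are reads divided by a size factor for each library.

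**Figure D1:**
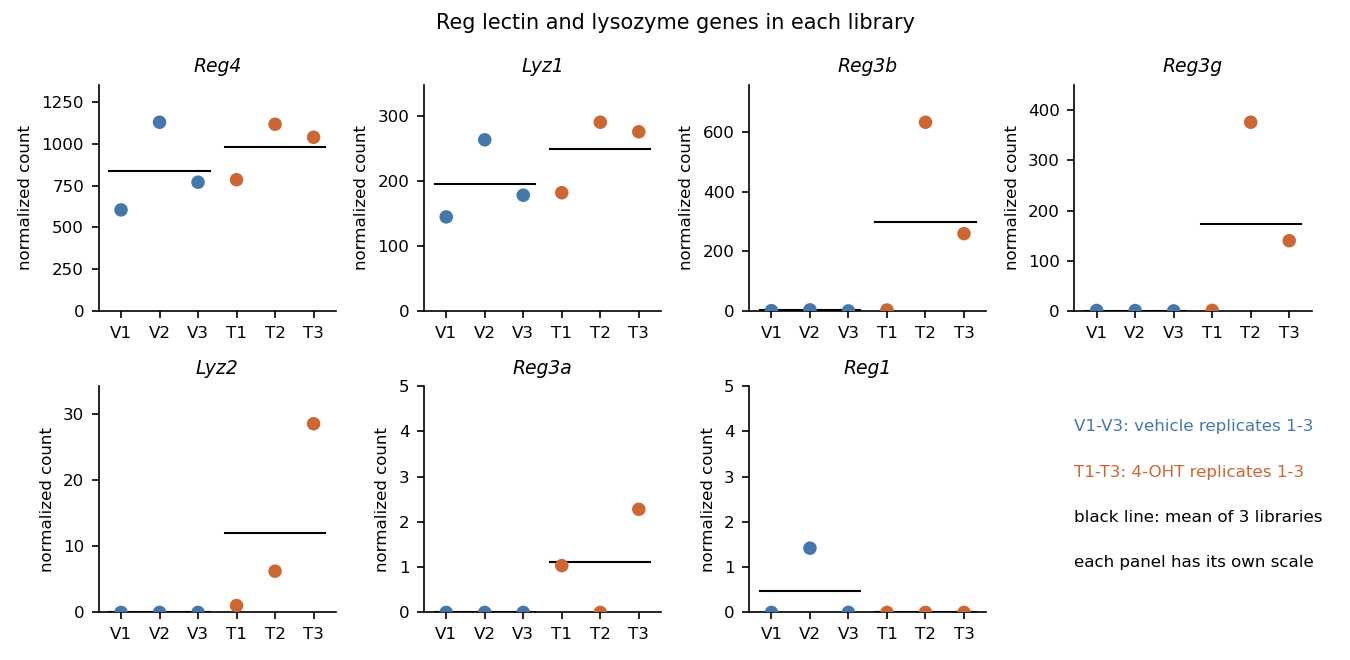
Normalized count of each gene (y axis, linear, a scale for each panel) in vehicle replicates 1 to 3 (V1 to V3) and 4-OHT replicates 1 to 3 (T1 to T3), with the mean of each group as a black line. Reg4 and Lyz1 overlap between the groups, while Reg3b and Reg3g stand at 3.547 or less in 4 libraries and at 140.0 or more in T2 and T3.

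The libraries held 15804709 to 26957612 reads. The 2 floxed genes were lower in all 3 4-OHT libraries, Prkcz far more than Prkci. Prkcz, which encodes PKCζ, had 879.8, 903.7 and 954.0 normalized counts in vehicle replicates 1 to 3 and 287.2, 265.4 and 290.3 in the 4-OHT replicates (log2 fold change -1.70, SE 0.076, adjusted p = 3.17e-12, limma). Prkci, which encodes PKCλ/ι, had 3603, 3526 and 3430 in vehicle and 2869, 3105 and 3089 in 4-OHT. It fell by 0.22 on the log2 scale (SE 0.048, adjusted p = 8.13e-04, limma), which by itself does not show that Prkci was deleted. Prkcz in 4-OHT replicate 1 thus lay between the values of the other 4-OHT libraries. On the first principal component over all tested genes, 4-OHT replicate 1 lay at 18.25, with replicates 2 and 3 at 29.41 and 28.87. The vehicle libraries lay between -26.33 and -24.04 on it. On the second component, however, 4-OHT replicate 1 stood apart at -26.76, against 10.46 and 10.93 for replicates 2 and 3. There the vehicle libraries lay between -1.2 and 3.45.

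Reg4 had 604.6, 1129 and 770.0 normalized counts in vehicle replicates 1, 2 and 3 and 785.2, 1117 and 1039 in 4-OHT replicates 1, 2 and 3. Vehicle replicate 2 was the highest of the 6 libraries, and 4-OHT replicate 1 lay beside vehicle replicate 3, so the groups overlapped. The means were 834.4 ± 268 (SD, n = 3) in vehicle and 980.6 ± 174 (SD, n = 3) in 4-OHT, a log2 fold change of 0.27 (SE 0.15). Lyz1 had 144.6, 263.2 and 178.0 normalized counts in vehicle replicates 1, 2 and 3 and 181.8, 290.2 and 275.5 in 4-OHT replicates 1, 2 and 3. Its order over the libraries was close to that of Reg4, with vehicle replicate 1 lowest and vehicle replicate 2 far above the other vehicle libraries. The means were 195.2 ± 61.1 and 249.2 ± 58.8 (SD, n = 3 each), and the fitted log2 difference was 0.37 (SE 0.18).

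Reg4 and Lyz1 kept nearly the same proportion in every library. Reg4 gave 4.18, 4.29 and 4.33 reads for each Lyz1 read in vehicle replicates 1 to 3, and 4.32, 3.85 and 3.77 in 4-OHT replicates 1 to 3. The level of each varied more: the highest vehicle library exceeded the lowest 1.87-fold for Reg4 and 1.82-fold for Lyz1. Against other crypt secretory genes the proportion was looser. Reg4 gave 0.257 to 0.505 reads per read of Muc2, the goblet cell mucin, 0.459 to 0.771 per read of Agr2, a disulfide isomerase of secretory cells, and 0.918 to 1.85 per read of Ang4, a secreted antimicrobial ribonuclease. Lyz1 gave 0.230 to 0.565 reads per read of Mmp7, the protease that activates mouse α-defensins in Paneth cells.

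**Figure D2:**
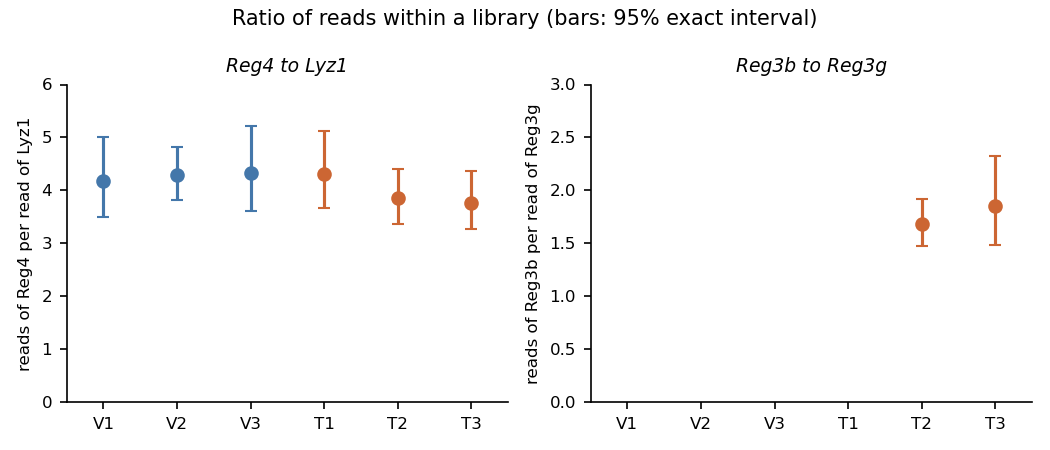
Reads of Reg4 per read of Lyz1 (left) in each vehicle (V) and 4-OHT (T) library and of Reg3b per read of Reg3g (right) in the libraries where they had at least 100 reads together, with 95% exact intervals for counting error. The Reg4 to Lyz1 ratio stays between 3.77 and 4.33 in all 6 libraries, and the Reg3b to Reg3g ratio is 1.68 in T2 and 1.85 in T3.

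The likeness of profiles was measured as the root mean square difference, over the 6 libraries, of log2(normalized count + 1) after the vehicle mean was subtracted among the 13210 rows that averaged 10 normalized counts or more. The gene most like Reg4 was Lyz1 and the gene most like Lyz1 was Reg4, at a difference of 0.0943. Next to Reg4 came Gm10642 at 0.121 and Hsf2bp at 0.139, and next to Lyz1 came Gm10642 and Sct, the hormone secretin, at 0.134 each. Gm10642 and Hsf2bp had at most 14.51 and 39.39 normalized counts, so their profiles carry more counting error than those of Reg4 and Lyz1. The likeness describes 6 libraries that share a table and its size factors. For Reg3b the nearest profile was Reg3g at 0.558, followed by Igha, the constant region of immunoglobulin A, at 0.978 and Defa30, an α-defensin of Paneth cells, at 1.08. For Reg3g, the order was Reg3b, Igha at 0.659 and Defa30 at 0.777.

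Reg3b and Reg3g lie at the ends of a Reg cluster on chromosome 6, in the order Reg3b, Reg3d, Reg3a, Reg2, Reg1 and Reg3g in the RefSeq annotation of GRCm38.p6. No single row under the symbol Reg2 or Reg3d was found in the deposited values, so neither gene was analysed. Reg4 lies apart on chromosome 3, and Lyz2 and Lyz1 are neighbours on chromosome 10. The authors' processing notes name GRCm39, so the positions below apply to the reference table only. The promoters of Reg3b and Reg3g are shown because these 2 genes had reads in the same 2 libraries while Reg3a and Reg1, which lie between them, had almost none. The 130 bases before the annotated start are printed 5′ to 3′ on the strand of the gene, Reg3b at chr6:78370755-78370884 on the plus strand and Reg3g at chr6:78468875-78469004 on the minus strand (RefSeq, GRCm38.p6), and the capitals mark the motifs described after them.
Reg3b: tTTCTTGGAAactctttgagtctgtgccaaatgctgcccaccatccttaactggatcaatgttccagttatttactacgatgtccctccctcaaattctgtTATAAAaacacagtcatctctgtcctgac
Reg3g: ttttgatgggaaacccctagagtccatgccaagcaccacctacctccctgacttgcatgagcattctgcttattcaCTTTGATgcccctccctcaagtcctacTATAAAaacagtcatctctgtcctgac

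The 3 motifs were TTCNNNGAA, the palindrome bound by STAT factors, CTTTGAT, the TCF/LEF core, and TATAAA, the TATA box, searched on both strands of the 250 bases before the start. Reg3b held TTCNNNGAA from position -129 to -121 and TATAAA from -29 to -24, counted back from the base before the start at -1. Reg3g held CTTTGAT from -54 to -48 and TATAAA from -27 to -22, with a further TATAAA on the other strand from -161 to -156, outside the printed stretch. Among the other 5 genes, Reg3a held CTTTGAT from -7 to -1, Reg1 held TATAAA from -30 to -25, and Reg4, Lyz1 and Lyz2 held none of the 3. Over 32851 promoters of the same length, 7.02% held TTCNNNGAA, 3.21% held CTTTGAT and 12.4% held TATAAA. The promoters of Reg3b and Reg3g were identical at 68.9% of aligned bases, against 47.9% for Reg3a and Reg3b and 50.5% for Reg3a and Reg3g. A match of letters is not evidence of binding.

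Reg3b had 1, 5 and 0 reads in vehicle replicates 1, 2 and 3 and 3, 611 and 228 reads in 4-OHT replicates 1, 2 and 3. In normalized counts these were 0.933, 3.547 and 0 in vehicle and 3.099, 633.3 and 259.5 in 4-OHT. 4-OHT replicate 1 lay within the vehicle range, and the other 2 4-OHT libraries stood far above it, so the groups overlapped. Against the pooled vehicle reads the ratio was 1.71 (95% exact interval 0.277 to 8.0, counting error only) in 4-OHT replicate 1, 349.1 (159.5 to 955.1) in replicate 2 and 143.1 (64.7 to 394.0) in replicate 3. The group means were 1.49 ± 1.84 and 298.7 ± 317 (SD, n = 3 each), an SD larger than the mean in both groups.

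Reg3g had 1, 1 and 0 reads in vehicle replicates 1, 2 and 3 and 1, 363 and 123 reads in 4-OHT replicates 1, 2 and 3. In normalized counts these were 0.933, 0.709 and 0 in vehicle and 1.03, 376.3 and 140.0 in 4-OHT. The groups do not overlap only because the 1 read of 4-OHT replicate 1 is worth 1.03 normalized counts and that of vehicle replicate 1 is worth 0.933, which is no difference at this depth. The ratio to the pooled vehicle reads was 1.71 (0.0290 to 32.8) in 4-OHT replicate 1, 622.3 (171.0 to 5158) in replicate 2 and 231.6 (62.8 to 1933) in replicate 3, and the vehicle side of it rests on 2 reads. The fitted log2 fold changes of 5.41 (SE 1.12) for Reg3b and 5.0 (SE 1.16) for Reg3g, on the log2(normalized count + 1) scale, average over libraries that were not alike.

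Both genes were higher in 4-OHT replicate 2 than in replicate 3 by similar factors, 2.44 (95% exact interval 2.09 to 2.85) for Reg3b and 2.69 (2.19 to 3.33) for Reg3g after scaling by size factor. Reg3b therefore gave 1.68 reads (1.48 to 1.92) per Reg3g read in replicate 2 and 1.85 (1.48 to 2.33) in replicate 3. Their annotated transcripts share no run of 50 bases, the longest common run being 35 bases and the coding sequences identical at 76.7% of aligned positions. Reads long enough to span such a run can thus be told apart between the 2 genes in this annotation.

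Reg1 had 2 reads in vehicle replicate 2 and 0 in the other 5 libraries. Reg3a had 1 read in 4-OHT replicate 1, 2 in 4-OHT replicate 3 and 0 elsewhere. Neither could be told from absent at this depth, at which a count of 0 allows up to 0.111 to 0.190 RPM in a library (3 reads of its total, with RPM as reads scaled to a library of 1000000).

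Lyz2 had 0 reads in all 3 vehicle libraries and 1, 6 and 25 reads in 4-OHT replicates 1, 2 and 3, or 1.03, 6.22 and 28.5 normalized counts. The 0 reads among 63145984 pooled vehicle reads allow up to 0.0475 RPM. Against a floor of 3 reads over the pooled vehicle group, the observed Lyz2 reads were 6.86-fold higher in 4-OHT replicate 2 and 31.4-fold higher in 4-OHT replicate 3. These ratios leave out the counting error of the 4-OHT reads, so they are not lower bounds. With that error, Lyz2 stood at 0.306 RPM (95% exact interval 0.112 to 0.667) in replicate 2 and 1.42 RPM (0.919 to 2.10) in replicate 3. Unlike Reg3b and Reg3g, it was lower in 4-OHT replicate 2 than in replicate 3, at a ratio of 0.219 (95% exact interval 0.073 to 0.546). Lyz2 and Lyz1 are close copies, with 95% identity over 444 coding bases without the stop codon, and 16.1% of the 50-base windows of the Lyz1 transcript also occur in Lyz2 (GENCODE vM21, GRCm38), so the division of reads between them is uncertain where the counting could split them. Coding positions 37 to 156 are printed because they hold 14 of the 22 differences, which are in capitals, and show how far apart the bases are that tell the 2 genes apart.
Lyz1: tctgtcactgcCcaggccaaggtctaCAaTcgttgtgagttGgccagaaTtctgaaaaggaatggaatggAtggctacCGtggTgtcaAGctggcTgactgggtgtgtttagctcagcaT
Lyz2: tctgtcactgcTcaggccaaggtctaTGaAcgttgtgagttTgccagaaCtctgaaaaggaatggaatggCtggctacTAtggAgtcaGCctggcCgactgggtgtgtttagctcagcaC

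Lyz2 reads did not follow Lyz1 reads. Vehicle replicate 2, which had the most Lyz1 reads (371), had 0 Lyz2 reads. Lyz1 gave 176 reads per Lyz2 read in 4-OHT replicate 1, 46.7 in replicate 2 and 9.68 in replicate 3. Nor did Lyz2 follow Reg3b, which gave 101.8 reads per Lyz2 read in 4-OHT replicate 2 and 9.12 in replicate 3.

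Per kilobase of annotated transcript, Reg4 was the most abundant of the 7 genes in vehicle, at 817 ± 263 normalized counts per kilobase (SD, n = 3), followed by Lyz1 at 155 ± 48.4, a gap larger than the spread of either. Reg3b at 1.91 ± 2.35, Reg3g at 0.710 ± 0.632 and Reg1 at 0.523 ± 0.906 rested on 6, 2 and 2 vehicle reads, too few to rank them. Reg3a and Lyz2 were at 0. In 4-OHT, Reg4 stood at 960 ± 170. It was followed by Reg3b at 381 ± 405, Reg3g at 224 ± 246 and Lyz1 at 197 ± 46.6, then Lyz2 at 9.05 ± 11.1 and Reg3a at 1.34 ± 1.38. The SDs of Reg3b and Reg3g hold the gap between 4-OHT replicate 1 and the other 2, so they do not rank genes within a library. Reg3b stood at 3.96, 809 and 331 in 4-OHT replicates 1 to 3, Reg3g at 1.34, 488 and 182, and Lyz1 at 144, 230 and 218. In 4-OHT replicate 2 alone, Reg3b at 809 normalized counts per kilobase came near Reg4 at 1090, whereas in 4-OHT replicate 1 it was at 3.96.

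Of the 7 genes, 4 (Reg3b, Reg3g, Reg4 and Lyz1) averaged 10 normalized counts or more and so entered the fit, and Reg3b and Reg3g did so only through 4-OHT replicates 2 and 3. Over all 13210 tested genes 43.6% had an adjusted p under 0.05 (limma), 22.7% were higher in 4-OHT, and the median log2 fold change was -0.005. Reg3b and Reg3g were among those called higher and Reg4 and Lyz1 were not called, a count from the contrast that chose the genes. The groups did not overlap for 52.1% of tested genes and, of these 4, for Reg3g. For 16% of tested genes 4-OHT replicates 2 and 3 both lay above every other library, which held for Reg3b, Reg3g and Lyz1 and not for Reg4. The number of called genes among the 7 changed with single libraries: it was 4 without vehicle replicate 2 or without 4-OHT replicate 1, and 0 when 4-OHT replicate 1 alone was set against vehicle. In that last fit Reg4 and Lyz1 were -0.04 and -0.06, and Reg3b and Reg3g were under the filter.

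The Reg3 pattern was also seen in other genes. Of 25067 rows, 10 had at most 5 reads in each vehicle library and in 4-OHT replicate 1 and at least 20 reads in both other 4-OHT libraries, a rule set after the values were seen. The number depends on these limits, and Defa24, Apoa1 and Anpep missed them by having up to 6, 7 and 10 reads in a vehicle library. They were Reg3b, Reg3g, 4 α-defensins (Defa21, Defa22, Defa30 and Defa38), Mptx2, a pentraxin of Paneth cells, Fabp6, the ileal bile acid binding protein, Enpep, a brush border aminopeptidase, and Igha. Defa30 had 0 reads in 4 libraries and 78 and 117 reads in 4-OHT replicates 2 and 3. Igha had 0, 0 and 0 reads in vehicle and 1, 135 and 40 in 4-OHT replicates 1 to 3. Fabp6 had 2, 3 and 2 reads in vehicle and 4, 120 and 34 in 4-OHT. Xist, the RNA of the inactive X chromosome, had 0, 0 and 1 reads in vehicle and 0, 3 and 12 in 4-OHT replicates 1 to 3, while Ddx3y, a Y-linked gene, had 680 to 1110 reads in every library. Apart from Ddx3y, these genes thus had most of their reads in the same 2 libraries as Reg3b and Reg3g, and their part in the Reg3 result was not tested.

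**Figure D3:**
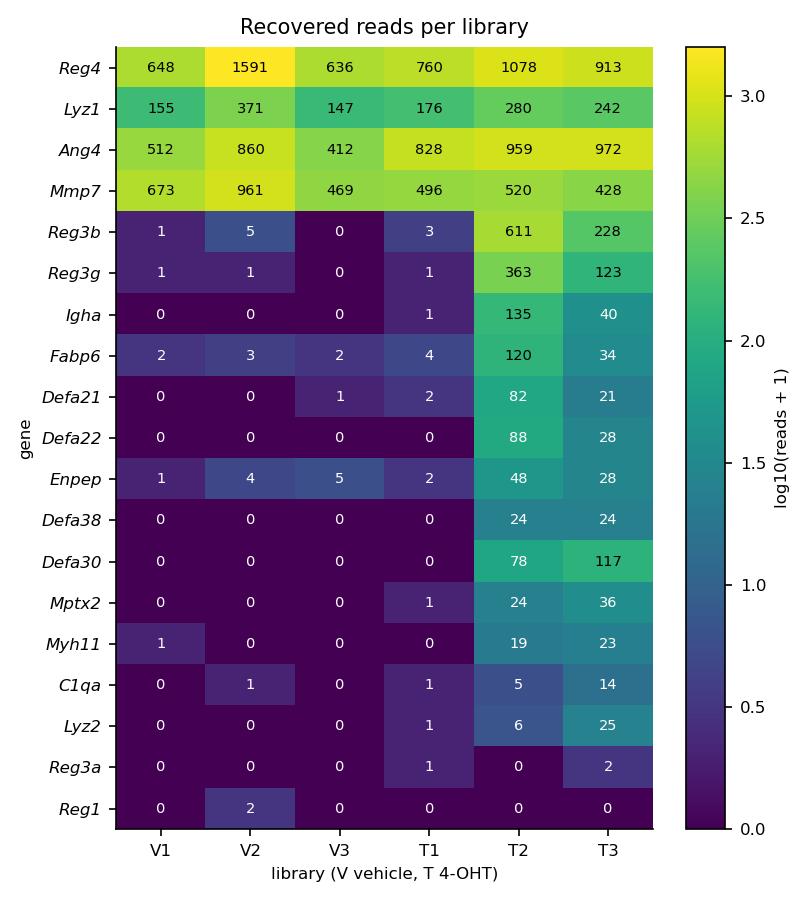
Recovered reads of the 7 Reg and Lyz genes and of 12 other genes (rows) in each vehicle (V) and 4-OHT (T) library (columns), coloured by log10(reads + 1) with the reads printed in each cell. Reg3b and Reg3g share their 2 positive libraries, T2 and T3, with Igha, Fabp6, Enpep, Mptx2 and the α-defensins, while Reg4, Lyz1, Ang4 and Mmp7 have reads in all 6.

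In bulk RNA, more cells of a type and more RNA per cell cannot be told apart. Of the 22 Paneth cell granule genes listed, 21 had a row and 11 of them were at 0 in all vehicle libraries. Their summed level was 61.6 to 73.9 RPM in vehicle and 72.6, 113.5 and 119.9 in 4-OHT replicates 1, 2 and 3. The 13 α-defensins among them, which define Paneth cells in the small intestine, had 2, 7 and 4 reads in vehicle and 6, 514 and 407 in 4-OHT replicates 1 to 3. Of these, Defa24 had some reads in every library, with 1, 6 and 3 in vehicle and 4, 145 and 176 in 4-OHT. Granule genes with more reads in vehicle did not all follow this order. Ang4 rose in all 3 4-OHT libraries, from 477.7, 610.1 and 498.8 normalized counts in vehicle replicates 1 to 3 to 855.4, 994.0 and 1106 in 4-OHT replicates 1 to 3 (log2 fold change 0.90, SE 0.094, adjusted p = 2.14e-07, limma). Mmp7 fell by 0.28 (SE 0.079, adjusted p = 0.0066, limma). Itln1, a secreted lectin, had 41.3 normalized counts in 4-OHT replicate 1, below the lowest vehicle library at 54.1, and 134.8 and 187.8 in replicates 2 and 3, and did not pass the test. Of the 10 tested Paneth genes 6 rose, 1 fell and 3 did not pass, with a median log2 fold change of 2.46, but 6 of the 10 (Defa21, Defa22, Defa24, Defa30, Mptx2 and Pnliprp2) averaged under 10 normalized counts in vehicle and entered the fit only through the 4-OHT libraries. Over all tested genes 43.6% were called and 22.7% were called higher. Of those 6 Paneth genes, 5 are among the genes that rose, so the filter favours the Paneth count and median. The calls depended on 4-OHT replicates 2 and 3, with 3 of these genes called without replicate 2, 4 without replicate 3 and 1 with 4-OHT replicate 1 alone.

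Genes of small-intestinal enterocytes had 40.8 to 46.8 RPM in vehicle and 63.9, 73.0 and 79.6 in 4-OHT replicates 1, 2 and 3, summed over 14 of 14 listed genes. Of 9 tested, 7 rose, 0 fell and 2 did not pass, against 22.7% called higher over all tested genes. Of the 7, 4 (Fabp6, Apoa1, Sis and Anpep) entered the fit only through the 4-OHT libraries, as for the Paneth genes. Anpep, a brush border aminopeptidase, had 5, 10 and 4 reads in vehicle and 3, 171 and 122 in 4-OHT, and Apoa1, an apolipoprotein, had 0, 2 and 7 reads in vehicle and 1, 99 and 74 in 4-OHT. Their order over the 4-OHT libraries was that of Reg3b and Reg3g. Fabp2, a fatty acid binding protein, rose in all 3 4-OHT libraries, from 53, 85 and 44 reads to 108, 149 and 98, and Onecut2, a transcription factor, had 610, 843 and 429 reads in vehicle and 881, 689 and 788 in 4-OHT. Gata4, a transcription factor of the proximal small intestine, was at 14, 11 and 8 reads in vehicle and 14, 1 and 3 in 4-OHT. Without 4-OHT replicate 2, and likewise without 4-OHT replicate 3, 3 of these genes were called in place of 7.

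Some immune and muscle genes had most of their reads in the same libraries. Of 7 plasma cell genes with a row, 5 were at 0 in all vehicle libraries, and the sum over the list, 586.6 to 618.0 RPM in vehicle and 909.6 to 930.5 in 4-OHT, was made up nearly wholly of Sdc1, which epithelium also expresses. The immunoglobulin genes Igha, Igkc and Ighm with Jchain summed to 0 reads in every vehicle sample, against 1, 204 and 63 in 4-OHT replicates 1 to 3, and Mzb1 had 0 everywhere. Derl3, of the same list, went the other way, with 30, 43 and 15 reads in vehicle and 1, 16 and 2 in 4-OHT (log2 fold change -2.41, SE 0.606, adjusted p = 0.00305, limma). Of the 14 myeloid genes, 4 were at 0 in all vehicle libraries, and their sum of 41.4 to 46.0 RPM in vehicle and 58.07 to 62.03 in 4-OHT came mostly from Cd14 and Mrc1, which rose in every 4-OHT library. The macrophage genes C1qa, C1qb and C1qc had together 0, 1 and 0 reads in vehicle and 1, 10 and 28 in 4-OHT, and Adgre1 (F4/80) had 0, 0 and 0 against 0, 1 and 5. Tyrobp did not exceed 1 read. The 6 smooth muscle genes summed to 0.147 to 0.696 RPM in vehicle and 0.727, 3.22 and 8.18 in 4-OHT. Of 5 pancreatic acinar genes with a row, 1 was tested (Cela1) and it was not called, Ctrb1 had 0 reads throughout, and Clps had 8, 1 and 0 reads in vehicle and 4, 11 and 15 in 4-OHT. All 6 general epithelial genes rose in 4-OHT, with a median log2 fold change of 0.39. Of 10 colon genes 9 passed the filter, of which 3 rose, 3 fell and 3 did not pass. Among those that rose, Car4 entered the fit only through the 4-OHT libraries. It had 1, 2 and 2 reads in vehicle and 5, 11 and 44 in 4-OHT replicates 1 to 3. Over all tested genes 43.6% were called and 22.7% were called higher.

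The balance between 4-OHT replicates 2 and 3 differed from gene to gene (as shown in the plot of replicate 2 against 3). Reg3b and Reg3g, at 2.44 and 2.69, lay beside Igha at 3.07 (95% exact interval 2.15 to 4.49), Fabp6 at 3.21 (2.18 to 4.85), Defa21 at 3.56 and Defa22 at 2.86. Defa30, at 0.607 (0.450 to 0.815), was lower in replicate 2, and the 13 α-defensins summed to a ratio of 1.15 (1.01 to 1.31). Lyz2 at 0.219 lay with the C1q genes at 0.325 (0.141 to 0.690) and the smooth muscle genes at 0.398 (0.292 to 0.539), all higher in replicate 3. Reg4 and Lyz1 were near even, at 1.08 and 1.05. The intervals cover counting error between 2 libraries and say nothing of 4-OHT against vehicle, and the part of these cell type genes in the Reg3b, Reg3g and Lyz2 values was not tested.

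**Figure D4:**
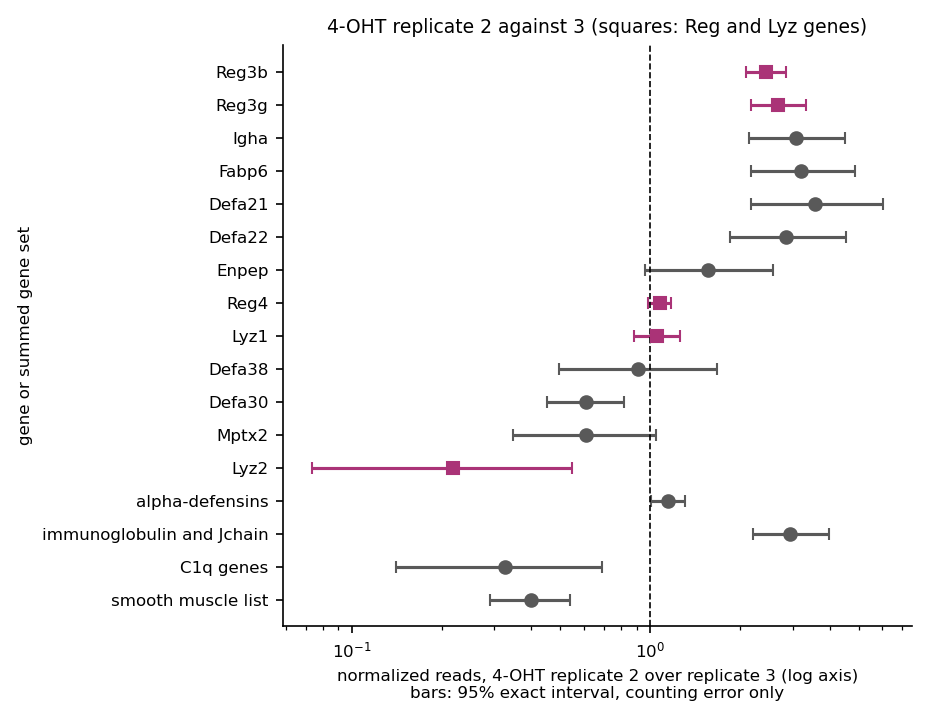
Ratio of size-factor-scaled reads in 4-OHT replicate 2 to those in 4-OHT replicate 3 (x axis, log scale) for 13 genes and 4 summed gene sets, with 95% exact intervals for counting error and squares for the Reg and Lyz genes. Reg3b and Reg3g lie right of 1 with Igha, Fabp6, Defa21 and Defa22, Reg4 and Lyz1 lie near 1, and Lyz2 lies left of 1 with the C1q and smooth muscle genes.

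Genes of the crypt secretory lineages changed in part. The 15 deep crypt secretory and goblet genes were all tested, and 7 rose, 2 fell and 6 did not pass, with a median log2 fold change of 0.41. Clca1, a secreted goblet cell protease, rose by 1.28 (SE 0.20, adjusted p = 3.19e-05, limma), Cd24a, a surface marker of the crypt secretory cells, by 0.79 and Spink4, a secreted peptide of goblet cells, by 0.56, while Dll4, a Notch ligand, fell by 0.49. Muc2 (log2 fold change -0.16) and Kit, the receptor that marks deep crypt secretory cells (-0.46), did not pass. Agr2 (0.47) and Tff3 (0.41) rose in all 3 4-OHT libraries alike, without the low value that Reg4 and Lyz1 had in 4-OHT replicate 1. Of the 15 secretory lineage transcription factors 4 rose, 4 fell and 7 did not pass, with a median of -0.04. Beside the counts of both lists, 43.6% of all tested genes were called and 22.7% were called higher. Sox9, which Paneth cells need, rose by 0.36 (SE 0.045, adjusted p = 2.27e-06, limma), Spdef, a goblet and Paneth cell factor, by 0.34 and Foxa1 by 0.20, Xbp1, a regulator of the secretory endoplasmic reticulum, fell by 0.24, and Atoh1, the factor that specifies secretory cells, was at -0.24 and did not pass. Only 4 of these 15 were called without 4-OHT replicate 2, and 5 without vehicle replicate 2.

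Receptors and signal carriers through which Reg3b and Reg3g are known to be induced changed in both directions. Of 20 tested genes 7 rose, 3 fell and 10 did not pass, with a median log2 fold change of -0.01. Over all 13210 tested genes 43.6% were called and 22.7% were called higher, so changes in both directions are common in this contrast. Il22ra1, the interleukin 22 receptor chain of epithelium, had 352.7, 391.6 and 336.6 normalized counts in vehicle replicates 1 to 3 and 331.6, 363.8 and 296.0 in 4-OHT replicates 1 to 3, and did not pass. Stat3 had 2769, 2809 and 2726 in vehicle and 2533, 2479 and 2600 in 4-OHT (log2 fold change -0.13, SE 0.046, adjusted p = 0.0333, limma). Among the largest changes were those of Lifr, the leukaemia inhibitory factor receptor, which fell by 1.18, and of the cytokine Il18, which rose by 0.99, followed by Il10rb, the other chain of the interleukin 22 receptor, which rose by 0.41. In each of these 3 genes 4-OHT replicate 1 lay apart from vehicle together with replicates 2 and 3.

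Of 15 STAT3-responsive epithelial genes with a row, 13 were tested, and 3 rose, 4 fell and 6 did not pass, with a median of -0.23. The share called over all tested genes was 43.6%. Nos2, the inducible nitric oxide synthase, rose from 98.9, 90.1 and 107.7 normalized counts in vehicle to 265.5, 237.4 and 275.5 in 4-OHT (log2 fold change 1.38, SE 0.126, adjusted p = 3.58e-08, limma). Socs3, the feedback inhibitor of STAT3 signalling, fell from 414.2, 385.9 and 364.4 to 224.2, 216.6 and 249.3 (log2 fold change -0.75, SE 0.097, adjusted p = 2.95e-06, limma). Tifa, an adaptor in bacterial sugar sensing, fell by 0.55 and Pigr, which carries immunoglobulin A across the epithelium, by 0.32. Saa1, an acute phase protein, had 13.1, 72.4 and 64.2 normalized counts in vehicle and 61.99, 64.3 and 103.6 in 4-OHT and did not pass. Lcn2 and S100a8 were under the filter and not tested. Lcn2 had 7, 9 and 10 reads in vehicle and 0, 2 and 0 in 4-OHT. S100a8 had 2, 2 and 3 against 1, 2 and 0. Bcl3, a nuclear regulator of NF-κB, had 1509, 1452 and 1514 normalized counts in vehicle and 1573, 1717 and 1894 in 4-OHT, and Duoxa2, the maturation factor of an epithelial oxidase, had 146.5, 147.5 and 113.8 in vehicle and 110.5, 165.8 and 181.0 in 4-OHT. Members of the list thus differed in how 4-OHT replicate 1 compared with replicates 2 and 3, and the part of STAT3 signalling in the Reg3 values was not tested.

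**Figure D5:**
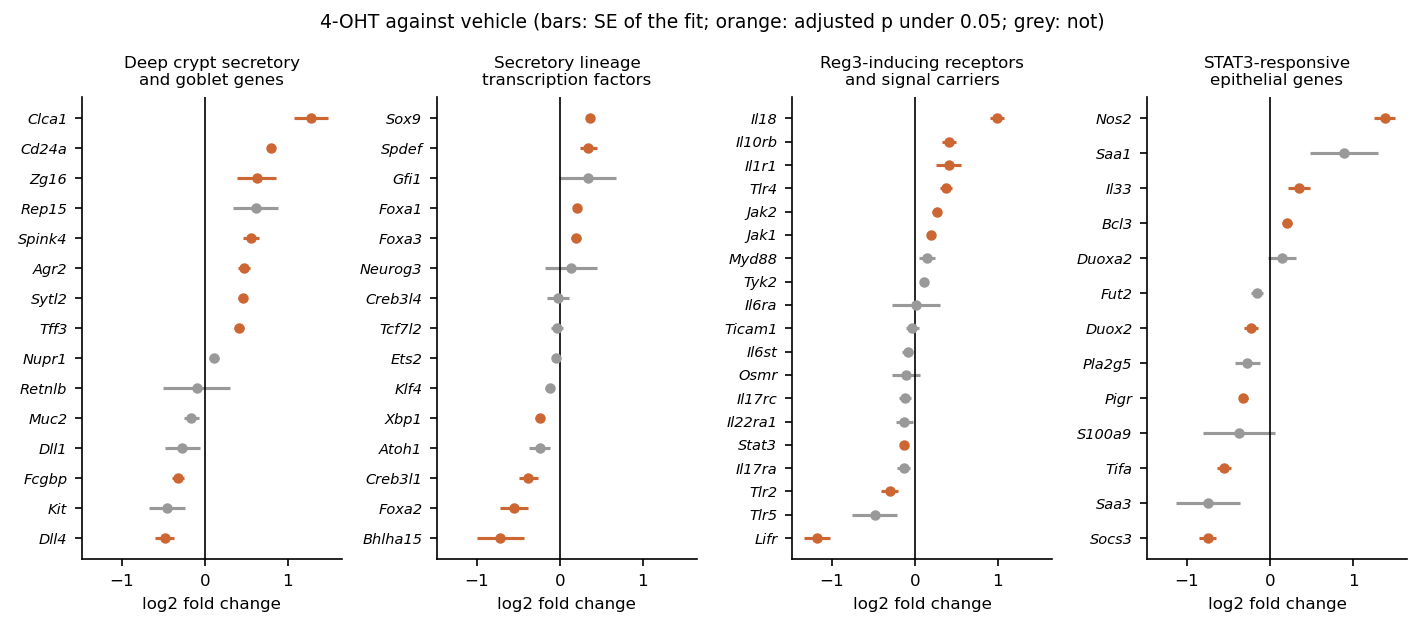
Log2 fold change of 4-OHT against vehicle (x axis) for tested genes (rows) of 4 lists, with the SE of the limma fit as bars, orange for an adjusted p under 0.05 and grey otherwise. Lists with genes on both sides of 0 include the STAT3-responsive genes, from Socs3 at -0.75 to Nos2 at 1.38, and the receptors, from Lifr at -1.18 to Il18 at 0.99.

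The related lysozyme genes were nearly silent. Of 5 with a row, 1 passed the filter, Lyzl4, with 10, 11 and 8 reads in vehicle and 15, 11 and 10 in 4-OHT (log2 fold change 0.46, SE 0.417), and it was not called.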

How the data were processed

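RNA was extracted with Trizol and a column kit, and the labels give no selection or strand. The deposited table holds normalized counts: the authors divided the reads of each library by its size factor, a signal with no correction for gene length. The submitters' processing notes name STAR, DESeq2, GRCm39 and mm39; versions, counter and annotation are not given in the sources used here. Dividing by each library's step gave whole reads for 100% of values (tolerance 0.1 reads), 15804709 to 26957612 a library. Intervals (95%, exact) and the floor of 3 reads cover counting error only.

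Rows that averaged 10 normalized counts or more (13210 of 25067; 1754 were 0 throughout) were compared by limma-trend (limma 3.58.1, R 4.3.3) on log2(normalized count + 1), 3 libraries against 3, two-sided, with Benjamini-Hochberg adjustment over all rows and a threshold of 0.05. Fold changes are on that scale and understate those of low genes. The fit was tested on simulated data. Alternatives were pseudocounts of 0.1 and 10, no filter, a mean of at least 50, TMM factors, quantile normalization, a replicate block, each library left out, 4-OHT replicate 1 alone against vehicle, and count tests on the recovered reads (edgeR 4.0.16, quasi-likelihood; DESeq2 1.42.0). Libraries of a group differed by more than counting error, so none was a second sequencing of the same library. This does not show that they came from separate cultures.

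The 7 genes and all lists were chosen with earlier results of these data known, so no list was tested as a set. Named are the 7 genes, up to 4 called genes of a list with the largest change and no overlap between groups, for marker lists also up to 4 with the most reads, and the nearest profiles. Other genes of the lists, Enpep and the rule for the Reg3 pattern were chosen after the values were seen. A gene of the receptor list is counted but not reported here by name or in the plot. Promoters and gene order are RefSeq GRCm38.p6, with all 7 promoters found, and transcripts are GENCODE vM21, a different build from the authors'. Sequence comparisons used Biopython 1.88.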

Additional observations from a re-analysis of the deposited data

How the results depend on the processing

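The number of genes past the threshold stayed within 1.5 times the reported 5765 under all alternatives run, with 5780 by edgeR and 5208 by DESeq2 on the recovered reads. Of the 7 Reg and Lyz genes 2 were past it as reported, 4 with the replicate block, 0 with 4-OHT replicate 1 alone against vehicle, and 2 to 4 when a library was left out. Without the filter on low values 3 were, Lyz2 being added at 2.92. Genes of all lists past the threshold numbered 67, and 44 with 4-OHT replicate 1 alone. The comparison of 4-OHT replicate 1 alone against vehicle turned Reg4 to -0.039 and Lyz1 to -0.057. It leaves 1 library on the 4-OHT side, which is assumed to vary like the vehicle libraries, and Reg3b and Reg3g fall under its filter. Over all tested genes, same-numbered vehicle and 4-OHT libraries did not deviate together (correlations -0.0074, 0.0303 and -0.0202). The numbers were therefore not taken as pairs, and the block is given only as an alternative. Reg4 and Lyz1, however, were lowest in replicate 1 and highest in replicate 2 of both groups, and they are the genes that the block added. Reg1 and Reg3a lie at the limit of depth.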
